A study of Homo sapiens with 6 samples.

Results

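The nuclear genes for the respiratory chain and ATP synthase were read on 6 one-color Agilent arrays of REH cells, with knockdown of the ETV6/RUNX1 fusion set against control. Members were the probes of the Agilent catalogue whose RefSeq mRNA accession mapped to a symbol beginning with NDUFA, NDUFB, NDUFC, NDUFS, NDUFV, UQCR, COX4 to COX8 or ATP5, or to SDHA, SDHB, SDHC or SDHD. This gave 115 probes of 93 genes, out of 19721 genes that catalogue probes named and 57176 non-control probes on the array, of which 34134 belong to the catalogue. Complex I holds 42 probes of 37 genes, complex II 11 probes of 4 genes, complex III 12 probes of 8 genes, complex IV 19 probes of 17 genes and complex V 21 probes of 19 genes. The prefix NDUFA also brought in the NDUFAF genes, 10 probes of 8 genes, whose proteins help to build complex I without staying in it, and these are described as a group of their own. CYC1 and the subunits encoded by mitochondrial DNA lie outside the prefixes, and NDUFA4 and NDUFA4L2 are listed by RefSeq under the newer symbols COXFA4 and COXFA4L2 and were counted as non-members.

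REH is a line of B-cell precursor acute lymphoblastic leukemia (BCP-ALL) in which one ETV6 copy is joined to RUNX1 and the other ETV6 copy is missing. All 6 samples were REH cells transduced with a lentiviral short hairpin RNA (shRNA) vector that carries green fluorescent protein, and green cells were sorted before RNA was taken. The 3 control samples (REH-NTC) carried a hairpin labelled non-targeting, which by the methods is an ETV6 hairpin that did not target the fusion transcript. The 3 knockdown samples (REH-fusionKD) carried an ETV6 hairpin that does target it. Both groups therefore rest on 1 hairpin each in 1 cell line, and the replicate numbers 1 to 3 come from the labels.

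Oxidative phosphorylation passes electrons from NADH (complex I) and succinate (complex II) through ubiquinone, complex III and cytochrome c to oxygen at complex IV, and the proton gradient built on the way drives ATP synthase, complex V. Except for complex II, each complex combines subunits encoded in the nucleus with subunits encoded in mitochondrial DNA. Transcription of the nuclear genes is known to depend on shared factors, among them NRF1, YY1 and GABP, an ETS-family factor built from GABPA and GABPB1.

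The expression values are on the generalised log2 scale of a variance-stabilizing normalization (VSN), so that a difference of 1 is about a doubling for a bright probe and is understated for a dim one. A probe was retained when it lay above a threshold set by the negative control spots on 2 of the 3 arrays of a group, which 27490 probes did. In the limma test, with Benjamini-Hochberg adjustment over all of these and a probe called at an adjusted p under 0.05, 1.74% of retained probes were called (352 lower, or 1.28%, and 126 higher, or 0.458%, in knockdown). ETV6 itself was read by a retained probe at 7.92, 8.05 and 8.37 in control and at 7.50, 7.46 and 7.29 in knockdown. All 3 knockdown values lay below all control values, a difference of −0.70 ± 0.14 (SE, n = 3 per group) with a limma adjusted p of 0.0514. Among alternative fits the limma adjusted p was 0.0309 without both replicate 1 arrays and 0.0437 with an intensity trend and robust prior. It was 0.0442 among probes over the threshold on all arrays, 0.0517 with the replicate block and 0.288 with spike-in scaling (−0.38). A second ETV6 probe had no array with signal well above background. Of 9 listed B-cell precursor markers, 8 were well above background on all 6 arrays, and the exception was VPREB1. Their 10 retained probes held 8 higher and 2 lower and no call, and a median of 0.11 that was 0.010 without knockdown replicate 1, with CD22 at 0.67 (limma adjusted p 0.0539, or 0.0264 with the replicate number as a block) and CD79B at 0.55 (0.166, or 0.0366 with the block). Of the T-cell markers with a probe, CD3E and CD3G were well above background on no array, CD2 was on 5 and CD3D was on all 6, while of the myeloid markers ELANE was on none and CD14 and CSF1R were on all 6. The 2 arrays numbered 1, one in each group, deviated together from the other arrays, and a number of values below are also given without knockdown replicate 1 or without both of these arrays. In bulk RNA, a smaller share of cells with a transcript cannot be told apart from less transcript per cell.

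None of the 113 retained members was called in either direction, and the lowest limma adjusted p among them was 0.198. At an unadjusted p under 0.05 there were 7 members, which is 6.19% of the members beside 12.5% of all retained probes. All 7 were lower in knockdown. Over all retained probes 6.82% were lower and 5.72% higher at that threshold, so the share of lower members was close to that of all probes. Under the 16 alternatives other than spike-in scaling 0 members were called as well, including the fit with the replicate number as a block, which called 3.79% of all retained probes. The changes of the members were small. Their log2 fold changes ran from −0.41 to 0.68 with a median of −0.072, and 58 of 113 lay within 0.1 of 0. For 95 members, or 84.1%, the 95% interval of the difference lay wholly within 0.5 of 0, that is within a change of 1.41-fold, beside 67.6% of all retained probes.

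Most members leaned the same way. In knockdown 88 members were lower and 25 higher (77.9% lower), beside 50.3% lower among all retained probes, whose median was −0.001. Complex III had the lowest median (−0.15, with 10 of 12 lower), followed by complex V (−0.086, 16 of 21), complex I (−0.083, 34 of 42), complex IV (−0.065, 14 of 17), the NDUFAF factors (−0.062, 8 of 10) and complex II (−0.039, 6 of 11). Without knockdown replicate 1 the order changed, with complex III at −0.090 (8 of 12 lower), complex I at −0.044 (29 of 42), complex IV at −0.027 (10 of 17), complex II at −0.019 (6 of 11), the NDUFAF factors at −0.009 (5 of 10) and complex V at 0.012 (10 of 21). With both arrays numbered 1 left out, which keeps the pairs whole, every median was below 0, at −0.086 for complex III (8 of 12 lower), −0.058 for complex II (7 of 11), −0.057 for complex I (32 of 42), −0.050 for complex IV (9 of 17), −0.033 for complex V (12 of 21) and −0.023 for the NDUFAF factors (8 of 10). The sign for complex II depends on how probes are counted and on the normalization. Its median was 0.013 with the probes of a gene averaged and 0.008 with normexp and quantile normalization. These medians are descriptions over members that share arrays, and no test was made of them. The count of members whose control and knockdown values did not overlap was 21 of 113 (18.6%), close to the 18.9% of all retained probes. By direction the members had 17 such probes lower (15.0%, beside 9.88% of all) and 4 higher (3.54%, beside 9.03%).

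**Figure D1:**
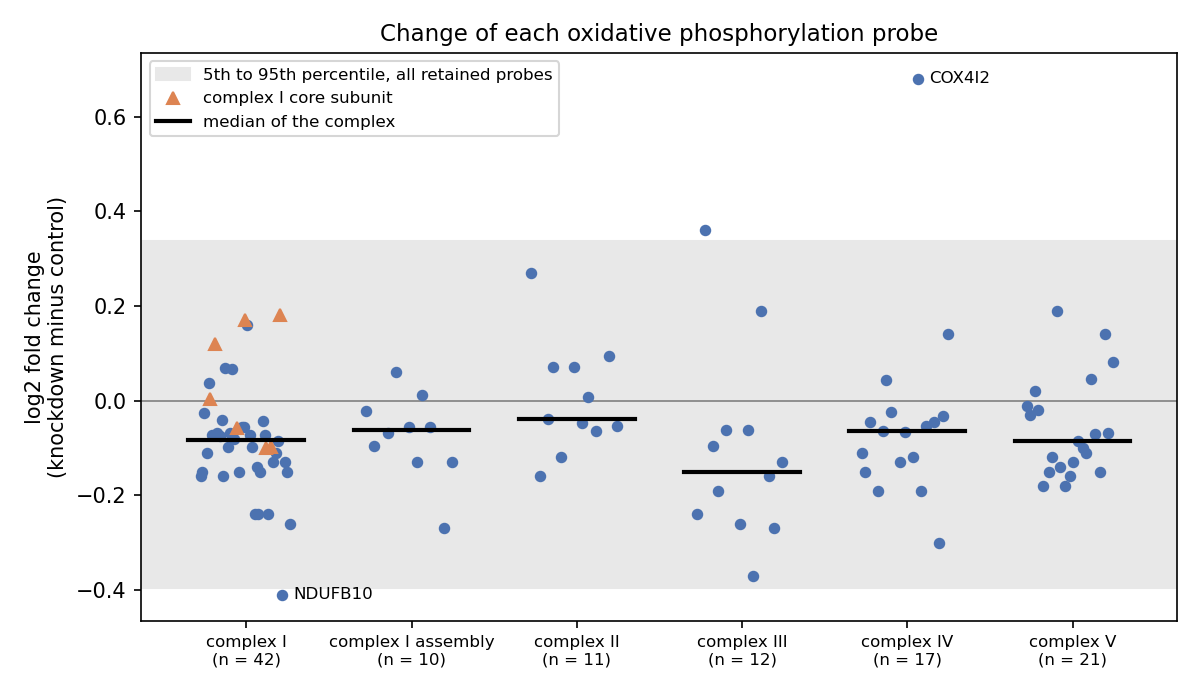
Log2 fold change, knockdown minus control, of each of the 113 retained member probes by complex (points; triangles mark core subunits of complex I), with the median of each complex as a bar and the 5th to 95th percentile of all retained probes shaded. Most points lie inside the shaded range and 88 of 113 lie below 0, COX4I2 at 0.68 and the dim UQCRB probe at 0.36 lie above it, and NDUFB10 at −0.41 lies just below it.

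The downward lean differed between the knockdown arrays. Relative to each probe's mean over the 6 arrays, the median member lay at 0.003, 0.057 and 0.055 on the control arrays and at −0.13, −0.013 and 0.060 on the knockdown arrays of replicates 1, 2 and 3. Knockdown replicate 1 was the low array, knockdown replicate 3 lay above all controls, and the groups overlapped. Within same-numbered pairs the member median differed by −0.13, −0.070 and 0.005, so pair 3 showed no lean. Complex I (−0.13, −0.075 and −0.006) and complex III (−0.30, −0.11 and −0.043) were lower in knockdown in every pair. The NDUFAF factors and complexes II, IV and V went both ways. Without knockdown replicate 1 the median log2 fold change of the members was −0.032 with 68 of 113 lower, and without both arrays numbered 1 it was −0.050 with 76 lower. The lean also depends on what is held constant between arrays. As an alternative, the VSN values of each array were further shifted to the level of the 7 usable spike-in probes. All probes then shifted by 0.317 and the member median became 0.25, beside 0.32 over all retained probes. That common shift sets the sign of most members (2 of 113 were lower), and it left the members below the median of all probes.

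**Figure D2:**
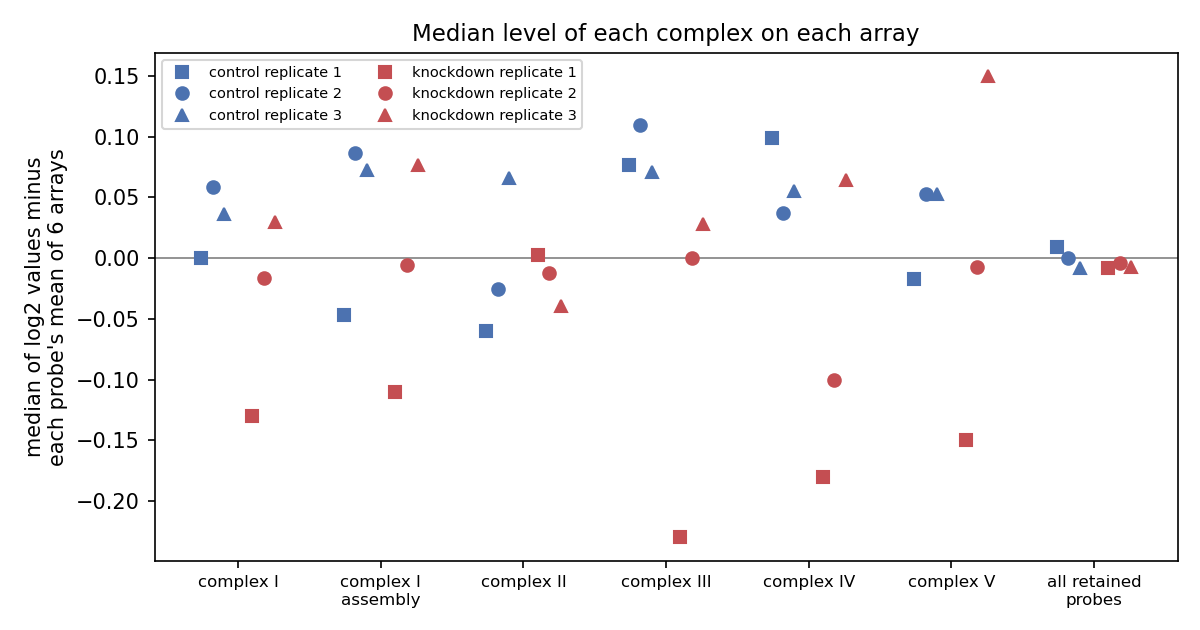
Median over the retained members of each complex, and over all retained probes, of the log2 value minus each probe's own mean of the 6 arrays (vertical axis), for control (blue) and knockdown (red) arrays, with squares, circles and triangles for replicates 1, 2 and 3. Knockdown replicate 1 is the lowest array for every complex and the assembly factors except complex II, and the medians of all retained probes stay within 0.01 of 0.

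Member promoters carry letters that factors of this gene set are known to recognise. RefSeq promoter windows (GRCh38.p14, from 250 bases before to 50 after the gene start) were found for 77 of the 93 genes, and 4 motifs were searched on both strands. CCGGAAG, a core of ETS-family sites such as that of GABP, was held by 21 of 77 (27.3%) beside 10.7% of all 27305 promoters. GCATGCG, of NRF1, was held by 15 (19.5%, beside 4.13%), AAGATGG, of YY1, by 16 (20.8%, beside 6.06%), and TGTGGT, the core bound by RUNX factors, by 13 (16.9%, beside 13.1%). No test was made of these shares, and the spelled motifs do not contain one another, although GCATGCG overlaps its own reverse complement. Shown are the 120 bases that end at the gene start for the member with the lowest p of all, NDUFB10, and for the lowest-p member with each motif in that stretch. The motif letters are in capitals, and each stretch is written 5′ to 3′ on the gene's strand.
NDUFB10 (chr16:1959418-1959537, + strand, none of the 4 motifs): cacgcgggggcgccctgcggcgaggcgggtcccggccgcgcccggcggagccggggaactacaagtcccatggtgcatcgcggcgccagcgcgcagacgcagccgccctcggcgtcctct
COX5B (chr2:97645942-97646061, + strand, ETS motif): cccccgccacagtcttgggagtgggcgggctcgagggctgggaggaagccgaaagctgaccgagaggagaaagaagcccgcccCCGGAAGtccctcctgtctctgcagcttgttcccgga
NDUFS7 (chr19:1383787-1383906, + strand, NRF1 motif): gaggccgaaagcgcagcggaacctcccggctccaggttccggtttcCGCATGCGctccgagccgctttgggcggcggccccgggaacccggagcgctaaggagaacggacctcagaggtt
COX7C (chr5:86617821-86617940, + strand, YY1 motif): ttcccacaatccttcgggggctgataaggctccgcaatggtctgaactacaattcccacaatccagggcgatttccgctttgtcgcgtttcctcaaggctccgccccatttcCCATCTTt
UQCR10 (chr22:29767249-29767368, + strand, RUNX motif): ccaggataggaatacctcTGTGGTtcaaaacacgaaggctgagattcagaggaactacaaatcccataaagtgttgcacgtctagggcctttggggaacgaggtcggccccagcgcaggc

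The changes of members with and without a motif are given here with no test of a difference. The median log2 fold change over genes was −0.07 for the 21 with the ETS letters and −0.07 for the 55 without, −0.07 and −0.07 for the NRF1 letters, −0.07 and −0.07 for the YY1 letters, and −0.06 for the 13 with and −0.07 for the 63 without the RUNX letters.

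Complex I, the NADH dehydrogenase, held the member with the lowest p. NDUFB10, an accessory subunit of the membrane arm, was at 14.17, 14.42 and 14.50 in control and 13.82, 14.02 and 14.03 in knockdown. Every knockdown value was below every control value. The difference was −0.41 ± 0.12 (SE), a level 0.755 times that of control, with a 95% interval from −0.69 to −0.13 and a limma adjusted p of 0.198. With the replicate number as a block the adjusted p was 0.0625.

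NDUFB5, another accessory subunit of the membrane arm, was read by 2 probes that moved together. The first was at 12.88, 12.72 and 12.70 in control and 12.54, 12.43 and 12.53 in knockdown (−0.26 ± 0.099, limma adjusted p 0.315), and the second gave −0.24 ± 0.11. The groups did not overlap on either probe. NDUFB3 was the third complex I member under an unadjusted p of 0.05, with −0.24 ± 0.10 and a limma adjusted p of 0.399.

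The highest changes of complex I belonged to a membrane-arm accessory subunit and to core subunits, which carry out the electron transfer itself. NDUFS7, which holds an iron-sulfur cluster next to the ubiquinone site, was at 13.01, 12.96 and 13.02 in control and 13.26, 13.03 and 13.25 in knockdown. The groups did not overlap, and the difference of 0.18 ± 0.10 had a limma adjusted p of 0.526. NDUFB11, the accessory subunit, was at 14.29, 14.44 and 14.42 in control and 14.53, 14.55 and 14.54 in knockdown (0.16 ± 0.093, limma adjusted p 0.552), again without overlap.

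The 7 nuclear core subunits of complex I had a median change of 0.004, with 3 lower and 4 higher. Among the 35 accessory probes the median was −0.097, with 31 lower, and without knockdown replicate 1 it was −0.045, with 26 lower, beside 0.008 for the core subunits. Without both arrays numbered 1 it was −0.073, with 28 lower, beside −0.006 for the core subunits. On single arrays the core median lay at −0.038, −0.047 and −0.002 in control and at 0.093, 0.000 and −0.057 in knockdown, so the groups overlapped. The accessory median lay at 0.002, 0.082 and 0.076 in control and at −0.16, −0.021 and 0.034 in knockdown, with overlap as well. Within same-numbered pairs the accessory median was lower in knockdown in all 3 (−0.17, −0.10 and −0.042), as was that of complex III. The core median was higher in pairs 1 and 2 and lower in pair 3 (0.13, 0.047 and −0.055). The difference between core and accessory subunits was not tested.

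NDUFAF4, an assembly factor of complex I, was the one member of the NDUFAF group under an unadjusted p of 0.05. It was at 11.33, 11.53 and 11.55 in control and 11.19, 11.18 and 11.23 in knockdown, without overlap. The difference was −0.27 ± 0.10 with a limma adjusted p of 0.315. NDUFAF8 was at −0.13 on both its probes, but at 0.055 and 0.083 without knockdown replicate 1 and at −0.027 and −0.043 without both arrays numbered 1. NDUFAF7 was at 0.061 ± 0.094 (0.12 without both arrays numbered 1). NDUFAF2 was at 0.013 ± 0.11 (−0.020 without both) from 5 arrays, since its spot on knockdown replicate 1 was marked as an outlier.

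Complex II, succinate dehydrogenase, is encoded wholly in the nucleus and takes part in the tricarboxylic acid cycle as well. Its 2 catalytic subunits lay on the higher side and its 2 membrane anchors on the lower side, and none of these changes passed the test. SDHA, the flavoprotein, had 4 probes with changes of 0.27, 0.095, 0.071 and 0.007, or 0.46, 0.10, 0.11 and −0.015 without both arrays numbered 1. On the first of these the values were 11.63, 11.26 and 11.48 in control and 11.52, 11.74 and 11.92 in knockdown, with overlap (SE 0.14, limma adjusted p 0.495). SDHB, the iron-sulfur subunit, differed by 0.072 ± 0.090. The anchors SDHC and SDHD, with 3 probes each, ran from −0.16 to −0.064 and from −0.053 to −0.039. Without knockdown replicate 1 they ran from −0.16 to −0.019 and from −0.14 to −0.074, and without both arrays numbered 1 from −0.27 to −0.058 and from −0.16 to −0.13. For 10 of the 11 probes the 95% interval lay within 0.5 of 0.

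Complex III, the cytochrome bc1 complex, had 5 of 12 members without overlap, all lower, beside 9.88% of all retained probes in that direction. Of these, 3 were the probes of UQCR10, a small subunit of the complex. The lowest of them was at 10.61, 10.51 and 10.40 in control and 10.38, 10.12 and 9.93 in knockdown, a difference of −0.37 ± 0.13 with a limma adjusted p of 0.308. The other UQCR10 probes gave −0.24 ± 0.13 and −0.19 ± 0.13. Without knockdown replicate 1 the lowest probe was at −0.49 and the others at −0.11 and −0.069, so the size on the latter depended on that array. UQCR11, also a small subunit, gave −0.27 ± 0.12, and UQCRFS1, the Rieske iron-sulfur protein that passes electrons on to cytochrome c1, gave −0.13.

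UQCRB, which takes part in ubiquinone binding, was the one gene whose probes differed by more than 0.5. Its bright probe was at 14.42, 14.31 and 14.13 in control and 13.93, 14.01 and 14.13 in knockdown, a difference of −0.26 ± 0.11 with a limma adjusted p of 0.399, and of −0.15 without both arrays numbered 1. Its dim probe was at 7.18, 6.73 and 6.74 in control and 7.57, 7.06 and 7.11 in knockdown, a difference of 0.36 ± 0.18 with a limma adjusted p of 0.466. The groups overlapped on both. On the dim probe the arrays numbered 1 were the highest of their groups, and each knockdown array was above the control array of the same number. The difference was 0.20 without knockdown replicate 1 alone and 0.35 without both arrays numbered 1, and with the replicate block the limma adjusted p was 0.0803. UQCRC1, a core protein of the complex, leaned up at 0.19 ± 0.11.

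Across all complexes, 17 genes had more than 1 retained probe. The probes of 14 of these agreed in sign, and those of 15 differed by less than 0.2. Many of these genes have processed pseudogenes, and binding of a probe to a related transcript was not tested.

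**Figure D3:**
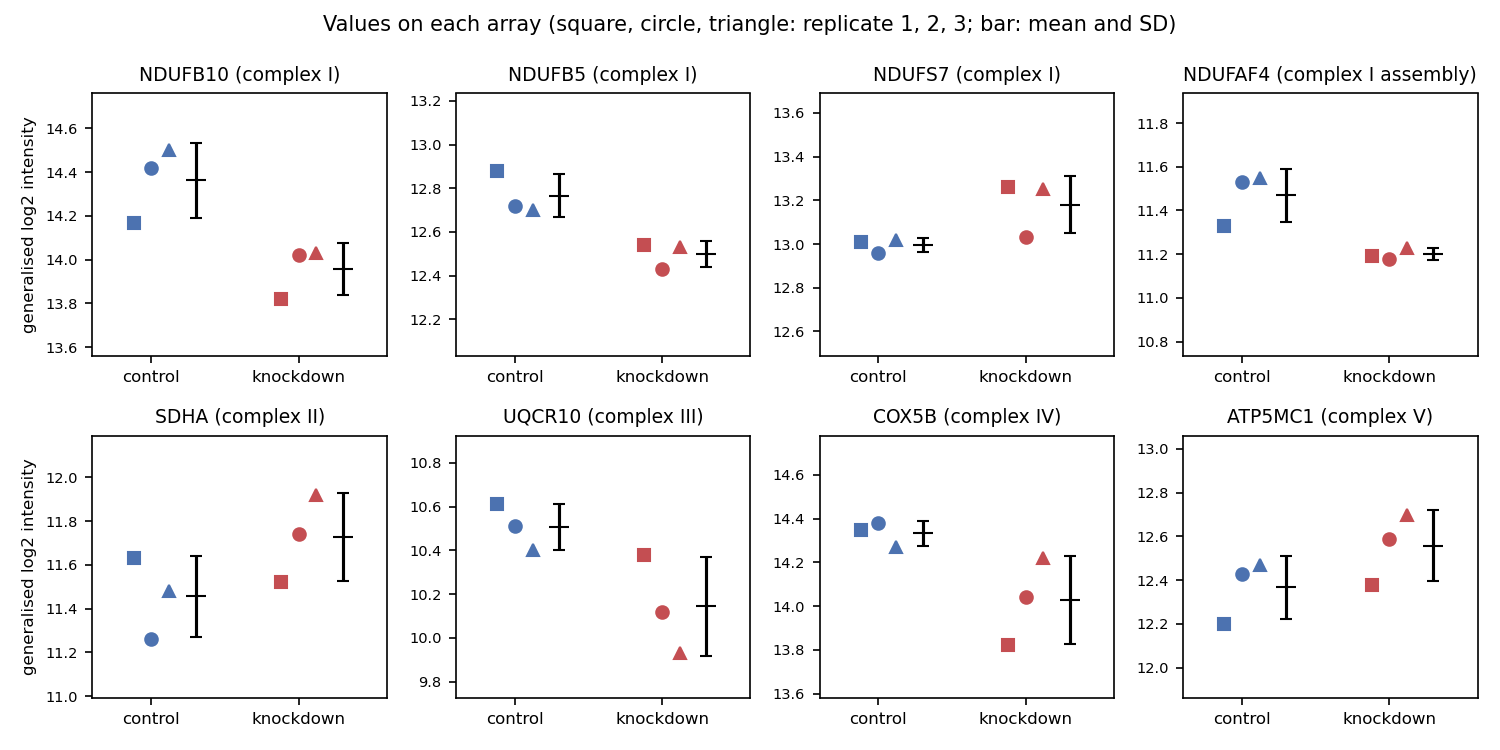
Generalised log2 intensity on each array for 8 named members, with squares, circles and triangles for replicates 1, 2 and 3 and a bar for the mean and SD of 3 arrays; each panel spans the same 1.2 units. NDUFB10, NDUFB5, NDUFAF4, UQCR10 and COX5B show control arrays above all knockdown arrays, NDUFS7 the opposite, and SDHA and ATP5MC1 overlap.

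Complex IV, cytochrome c oxidase, surrounds a catalytic center made from mitochondrial DNA with nuclear subunits, several of which exist as a broadly used form and a tissue-restricted one. COX5B, a broadly used subunit, was at 14.35, 14.38 and 14.27 in control and 13.82, 14.04 and 14.22 in knockdown. The groups did not overlap, and the difference of −0.30 ± 0.12 had a limma adjusted p of 0.354. COX7C was at 16.22, 16.22 and 16.21 in control and 15.93, 15.96 and 16.18 in knockdown (−0.19 ± 0.10, limma adjusted p 0.505), also without overlap. On both genes knockdown replicate 1 was the lowest array, and without it COX5B was at −0.20 and COX7C at −0.15. The broadly used forms with a tissue-restricted counterpart overlapped between groups, with COX4I1 at −0.11, COX6A1 at −0.066, COX6B1 at −0.054, COX7A2 at −0.19, COX7B at −0.15 and COX8A at 0.043. Several of these depended on knockdown replicate 1, and without it COX6A1 was at −0.027, COX6B1 at 0.032, COX7A2 at −0.075, COX7B at −0.048 and COX8A at 0.10. Without both arrays numbered 1 they were at −0.050, 0.025, −0.11, −0.089 and 0.075 in the same order.

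The tissue-restricted forms were read on their own probes, and no level was compared between probes. COX7A1, the heart and muscle form, and COX7B2, a testis form, reached a signal well above background on none of the 6 arrays, and they were the 2 members not retained. COX6A2, another heart and muscle form, was well above background on all 6 arrays and did not separate the groups (−0.046 ± 0.16). COX8C, a testis form, was well above background on all 6 and gave −0.033 ± 0.15. COX6B2, also a testis form, was well above background on all arrays on both its probes, with changes of 0.14 ± 0.14 and −0.025 ± 0.18. Leaving out knockdown replicate 1 put these forms at 0.034 (COX6A2), 0.052 (COX8C), 0.24 and 0.11 (COX6B2), and leaving out both arrays numbered 1 put them at 0.13, 0.14, 0.35 and 0.001.

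COX4I2, the form of subunit 4 known for its response to low oxygen, had the largest change of any member, and it came from 1 array. Its values were 5.52, 5.81 and 5.73 in control and 7.82, 5.52 and 5.77 in knockdown, so only knockdown replicate 1 stood out, and the other 5 arrays overlapped. It was well above background on 1 control and 2 knockdown arrays, and it was retained through the knockdown group alone. The difference was 0.68 ± 0.53 with a limma adjusted p of 0.657, and without knockdown replicate 1 it was −0.042. Under spike-in scaling, where limma assumed nearly equal spread for all probes, its adjusted p was 0.00199, the 1 member call of a fit that called 3.56% of all probes.

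NDUFA4L2, listed now as COXFA4L2 and not a member, is likewise known for its response to low oxygen. It was at 7.21, 5.76 and 5.62 in control and 7.70, 6.02 and 6.23 in knockdown. Both arrays numbered 1 were high, each knockdown array was above the control array of the same number, and the groups overlapped. The difference was 0.45 ± 0.53 with a limma adjusted p of 0.78, or 0.0727 with the replicate block, and it was 0.43 without both arrays numbered 1. Leaving out knockdown replicate 1 alone, with the high control replicate 1 kept, gave −0.075. NDUFA4 (COXFA4) differed by −0.20 ± 0.14 with a limma adjusted p of 0.628, and by −0.056 without knockdown replicate 1 or −0.090 without both arrays numbered 1.

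**Figure D4:**
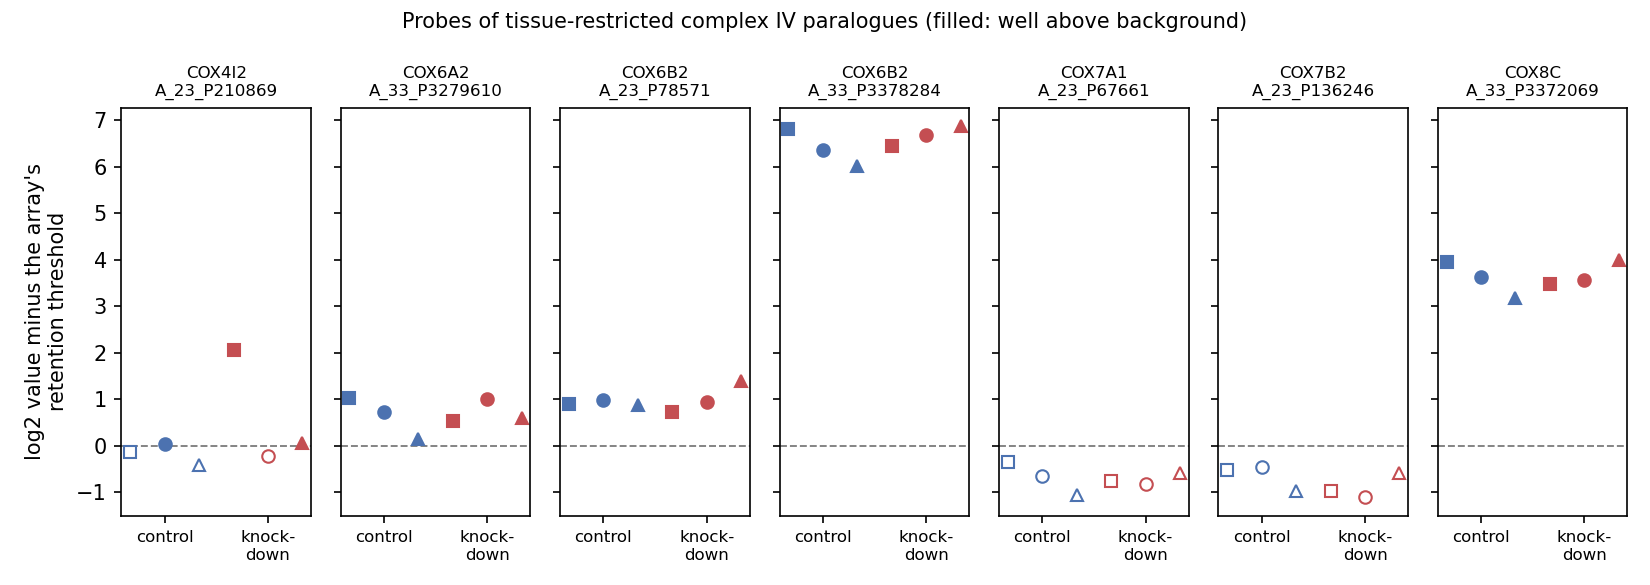
Log2 value minus the retention threshold of the same array (vertical axis) for the probes of 6 tissue-restricted complex IV forms, 3 control (blue) and 3 knockdown (red) arrays per panel, with squares, circles and triangles for replicates 1, 2 and 3 and filled symbols where the signal was well above background. COX7A1 and COX7B2 stay below the threshold with open symbols on all 6 arrays, and knockdown replicate 1 alone rises in the COX4I2 panel; each panel is read on its own.

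The arrays numbered 1, one per group, were set against the other arrays with group as a term, a contrast chosen after seeing the data. Of 27490 probes 5.66% were called by limma, and of 113 members 3 were called. ATP5PF, of the peripheral stalk of ATP synthase, was lower on the arrays numbered 1 (−0.48 ± 0.087, limma adjusted p 0.0251), as was a probe of the assembly factor NDUFAF8 (−0.50 ± 0.10, limma adjusted p 0.0356). The dim UQCRB probe was higher (0.47 ± 0.084, limma adjusted p 0.0256). The median over members was −0.091 with 78 of 113 lower, beside a median of 0.006 over all probes. NDUFA4L2 was higher on these arrays by 1.55 ± 0.10 (limma adjusted p 0.00077).

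Complex V, the ATP synthase, had no member under an unadjusted p of 0.05, with 16 probes lower and 5 higher. With knockdown replicate 1 left out, 10 of the 21 were lower and the median was 0.012, and with both arrays numbered 1 left out 12 were lower and it was −0.033. ATP5MC1, which encodes the c subunit of the membrane rotor, was at 12.20, 12.43 and 12.47 in control and 12.38, 12.59 and 12.70 in knockdown. Each knockdown array was above the control array of the same number, while the groups overlapped, and the difference was 0.19 ± 0.12 with a limma adjusted p of 0.592. ATP5F1D, the delta subunit of the central stalk, was at 12.18, 12.23 and 12.28 in control and 12.38, 12.36 and 12.38 in knockdown, without overlap (0.14 ± 0.089, limma adjusted p 0.575).

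ATP5F1C, the gamma subunit at the center of the rotor, and ATP5PB, of the peripheral stalk, were the lowest-p members that leaned down. ATP5F1C was at 13.35, 13.41 and 13.38 in control and 13.19, 13.34 and 13.16 in knockdown (−0.15 ± 0.096, limma adjusted p 0.577). ATP5PB was at 14.26, 14.18 and 14.21 in control and 14.11, 14.01 and 14.13 in knockdown (−0.13 ± 0.093, limma adjusted p 0.62). Neither pair of groups overlapped. ATP5IF1, the inhibitor that holds back ATP hydrolysis by the synthase, differed by 0.020 and 0.045 on its 2 probes, and by 0.091 and 0.13 without knockdown replicate 1.

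Genes that build, supply or regulate the chain were read from 10 lists of 97 genes, of which 93 had retained probes (115 probes). A single probe among them was called, and it was lower in knockdown, beside 1.74% of all retained probes called and 1.28% called lower. The lists thus held no excess of calls. It belongs to GABPB1, the subunit of the ETS factor GABP that carries its activation function, and was at 11.60, 11.79 and 11.81 in control and 10.81, 10.98 and 10.48 in knockdown. The groups did not overlap, and the difference of −0.98 ± 0.14 had a limma adjusted p of 0.0167. A second GABPB1 probe did not share the change, at 9.48, 9.63 and 9.79 in control and 9.55, 9.54 and 9.68 in knockdown (−0.041 ± 0.11, limma adjusted p 0.917). The call was lost without control replicate 2 (limma adjusted p 0.0918), without control replicate 3 (0.0723), with spike-in scaling (−0.66, adjusted p 0.0943) and without the filter on dim probes (0.0565). It was lost also with the slide row as a term (−1.06), a fit that rests on control replicate 3 as the only control in the row of the knockdown arrays.

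The other regulators with a known role at these promoters did not pass the test. GABPA, the DNA-binding partner of GABPB1, differed by −0.11 ± 0.15, NRF1 by −0.034 ± 0.15 and YY1 by −0.086 ± 0.091. GABPA was at −0.24 and NRF1 at 0.042 without knockdown replicate 1, and at −0.26 and −0.028 without both arrays numbered 1. Among the 17 probes for mitochondrial transcription and its regulators, 15 were lower, with a median of −0.11, beside 50.3% lower among all retained probes.

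SLC25A4, the ADP/ATP carrier known from heart and muscle, had the next lowest p of the lists. It was at 11.93, 11.64 and 11.84 in control and 11.38, 11.13 and 10.67 in knockdown, without overlap. The difference was −0.74 ± 0.18 with a limma adjusted p of 0.113, which became 0.0493 with the replicate block and 0.0431 without knockdown replicate 1, but was 0.0571 without both arrays numbered 1. SQOR, which feeds electrons from sulfide to ubiquinone, was at 8.24, 8.05 and 7.87 in control and 7.79, 7.46 and 7.44 in knockdown (−0.49 ± 0.14, limma adjusted p 0.187, or 0.0398 with the replicate block), again without overlap.

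The lists of assembly factors, the tricarboxylic acid cycle and coenzyme Q synthesis held no called gene. SCO1, which delivers copper to complex IV, had the lowest p among 25 probes for complex IV assembly, 19 of them lower, at −0.39 ± 0.12 (limma adjusted p 0.216) from 5 arrays, as its value on control replicate 3 was missing. UQCC2 led complex III assembly at −0.26 ± 0.14 (−0.16 without knockdown replicate 1, −0.28 without both arrays numbered 1), FOXRED1 led complex I assembly at 0.22 ± 0.10, ATPAF1 led ATP synthase assembly at −0.20 ± 0.14 (−0.31 without that array) and SDHAF4 led complex II assembly at 0.15 ± 0.13 (0.23). IDH3G, a subunit of isocitrate dehydrogenase, led the tricarboxylic acid cycle at 0.20 ± 0.11, where 9 of 15 probes were higher with a median of 0.039 (−0.029 without knockdown replicate 1, 0.009 without both arrays numbered 1), and COQ4 led coenzyme Q synthesis at 0.099 ± 0.093.

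**Figure D5:**
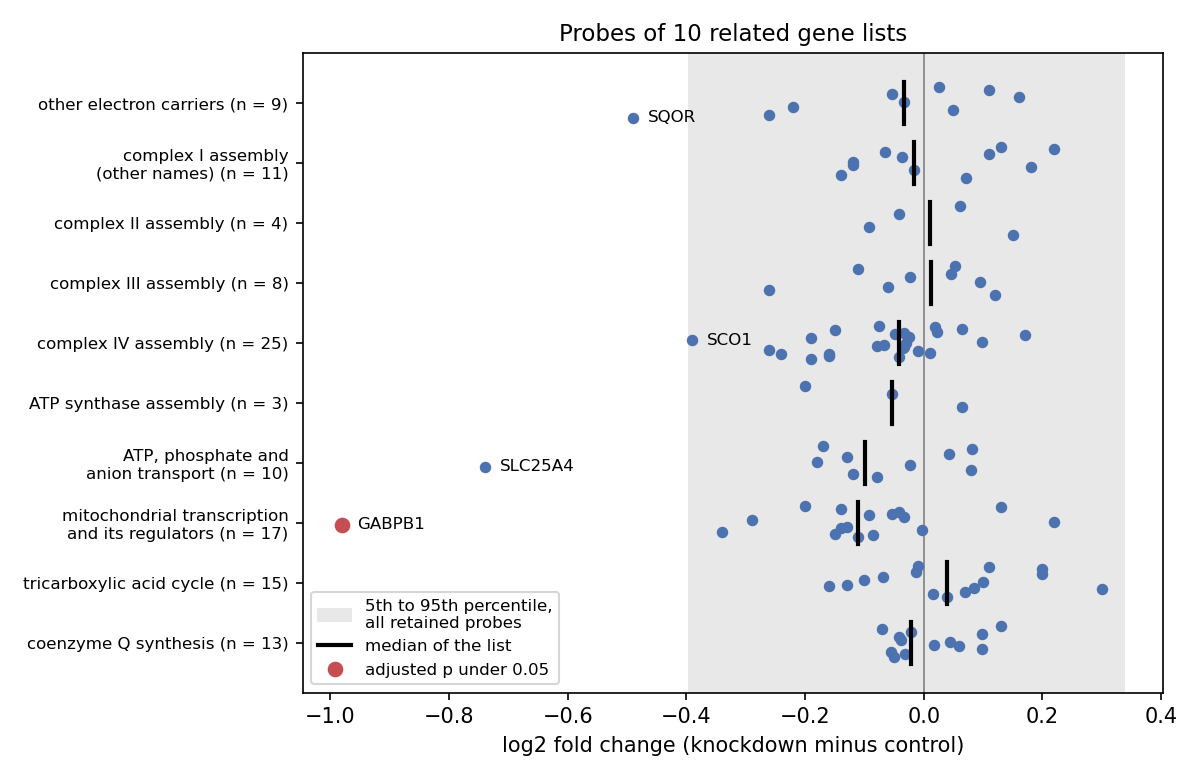
Log2 fold change, knockdown minus control (horizontal axis), of the 115 retained probes of 10 related gene lists, with the median of each list as a bar and the 5th to 95th percentile of all retained probes shaded. One GABPB1 probe at −0.98 is the only one with a limma adjusted p under 0.05 (red), and SLC25A4 and SQOR also lie outside the shaded range.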

How the data were processed

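Total RNA of 6 REH samples was labelled with Cy3 and hybridised to custom arrays on 1 slide. Per the file headers, the authors used Feature Extraction 10.7.1.1 to read spot intensities. The deposited raw median intensity is not normalized between arrays. The authors also deposited normalized log2 values for 27869 probes (VSN, background subtraction and a negative-control filter in the methods), with medians of 8.37, 8.32 and 8.30 in control and 8.36, 8.30 and 8.29 in knockdown and slopes of 1.03 to 1.04 against the values computed here; their exact scale and background step stay unknown, and they served as an alternative.

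The VSN model was rewritten and fitted to the raw median intensity by least trimmed squares (0.9 quantile, 7 iterations). Outlier spots were dropped and repeat spots of a probe averaged, with no saturated spot. Probes above 1.1 times the 0.95 quantile of the 308 normalized negative control spots on 60% of the arrays of a group were retained. Median raw intensities were 66 to 75 (negative controls 42.25 to 48), 45.9% to 51.0% of probes were well above background, and the number of arrays limits the precision. Gene symbols came from RefSeq accessions (75.4% of catalogue probes named).

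Knockdown and control were compared in R 4.3.3 with limma 3.58.1 (two-sided, no block, Benjamini-Hochberg over all retained probes), after the method was tested on simulated data. With 3 arrays against 3, an exact permutation test cannot go below 0.1. P-values measure the spread between these samples. The replicate numbers, taken from the labels, pair the samples: deviations of same-numbered arrays correlated at 0.4263, 0.2874 and 0.2036, although control 2 with knockdown 3 (0.1870) and control 3 with knockdown 2 (0.1697) came close to the last of these. Members and gene lists were chosen with earlier results of these data known. Genes with full values are, per complex, the 2 probes of lowest p in each direction, the complex IV forms, SDHA to SDHD, ATP5IF1, genes whose probes differ by more than 0.5, and the called and lowest-p genes of the lists; other genes were named after their values were seen.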

Additional observations from a re-analysis of the deposited data

How the results depend on the processing

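Members called stayed at 0 under 16 of 17 alternatives and were 1 (COX4I2) under spike-in scaling, which assumes equal spike-in amounts in all samples. That scaling gave 980 calls over all probes, against 478, and medians of 0.25 for all members, 0.23 for complex I, 0.26 for the NDUFAF factors, 0.28 for complex II, 0.17 for complex III, 0.25 for complex IV and 0.23 for complex V; the common shift of 0.317 sets these signs. With the replicate block 1041 probes and 0 members were called; the block changed the call of SLC25A4, SQOR, CD22 and CD79B among the other genes named and of no member. Calls over all probes fell to 224 without the filter on dim probes, where more probes were tested, and to 227 with the slide row as a term; the cause was not tested. With probes of one gene averaged the complex II median was 0.013. Leaving out 1 array at a time gave 191 (without control replicate 2) to 553 (without knockdown replicate 1) calls, 0 members called, member medians of −0.13 to −0.032, and complex medians of −0.14 to −0.044 (I), −0.13 to −0.009 (NDUFAF), −0.043 to 0.028 (II), −0.21 to −0.090 (III), −0.15 to −0.027 (IV) and −0.16 to 0.012 (V). Leaving out both arrays numbered 1, an alternative chosen after seeing the data, gave 711 calls. Depth is not counted on arrays, and the scale understates differences of dim probes.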

Other observations

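The printed promoters of NDUFB10, UQCR10 and COX7C share the letters GAACTACAANTCCCA, known as part of an element bound by ZNF143 and THAP11. They were taken from these stretches after the sequences had been seen, and the stretches had been chosen for the low p of their genes. On both strands, 4 of 77 member promoters hold them (5.19%), beside 65 of 27305 promoters (0.238%). The promoters of NDUFB10, UQCR10 and COX7C hold them by construction, so that of ATP5PO is the only further one. The share of the members is therefore not independent of the search. No test was made. The genes changed by −0.41 (NDUFB10), −0.19 (COX7C) and −0.14 (ATP5PO, −0.071 without knockdown replicate 1, −0.10 without both arrays numbered 1), and the UQCR10 probes by −0.37 to −0.19, with no call among them.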
